A study of Mus musculus with 30 samples.

Results

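Of the 21631 protein-coding mouse genes considered, 7 are described here: Socs1, Socs2, Socs3 and Cish, which encode inhibitors of cytokine signalling, and Stat3, Stat5a and Stat5b, which encode the transcription factors whose activity those inhibitors limit. They were chosen by name, and at each gene 2 things were measured from peak lists made by chromatin immunoprecipitation with sequencing (ChIP-seq): the length covered by peaks of H3K4me3, a histone mark of active promoters, and the listed sites of tagged HOXA9. ER-Hoxa9-Lys-GFP cells carry HOXA9, a homeodomain factor of blood progenitors, fused to an estrogen receptor part that binds hormone, so that the fusion is active while estradiol (E2) is present. Their H3K4me3 was listed in 5 conditions: E2 throughout, 24 h without E2 and then 96 h with it restored, 40 h and then 80 h, 72 h and then 48 h, and 120 h without E2 and no restoration. Below, 24, 40 and 72 h always mean the length of withdrawal before restoration, and because time in restored E2 shortens as withdrawal lengthens, the effects of the 2 times cannot be told apart. Tagged HOXA9 was mapped in untreated V5-Hoxa9-AM cells by ChIPs titled V5 and AM, and in V5-ER-Hoxa9-AM cells by V5 in E2, V5 at 72 h and AM in E2; the antibody given in the labels of both AM samples is V5, and their titles set their group here. All cells are labelled as C57BL/6 cells cultured in vitro, in medium with stem cell factor, and the sources used here do not say whether a line is 1 clone or which promoter drives its transgene. With 1 library for each target and condition, differences have no replicate check, and no p-value is given.

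Cytokines that bind receptors of this pathway activate Janus kinases, which phosphorylate STAT proteins. Phosphorylated STAT3 and STAT5 move to the nucleus and bind DNA, often at the palindrome TTCNNNGAA, and among the genes they switch on are those of the SOCS family. SOCS proteins then bind the receptor, the kinase or both and damp the signal, a negative feedback loop. In myeloid cells STAT3 and SOCS3 act downstream of granulocyte colony-stimulating factor, and STAT5 and CIS, the product of Cish, downstream of interleukin 3, granulocyte-macrophage colony-stimulating factor and erythropoietin.

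Cish, Socs3 and Stat3 were the genes with a match to TTCNNNGAA or to the homeodomain core TAATTA among those searched. Promoter sequences of these and of Socs1, 4 genes in all, are shown, and peaks described below lie over or beside them. Each runs from 250 bases before the RefSeq start (GRCm38.p6) to 30 bases from it, 5′ to 3′ on the gene's strand, and capitals mark TTCNNNGAA in Cish and Socs3 and the homeodomain core TAATTA in Stat3. Socs1 is shown beside them as an inhibitor gene with neither motif in this window.
Cish (chr9:107296409-107296688, plus strand): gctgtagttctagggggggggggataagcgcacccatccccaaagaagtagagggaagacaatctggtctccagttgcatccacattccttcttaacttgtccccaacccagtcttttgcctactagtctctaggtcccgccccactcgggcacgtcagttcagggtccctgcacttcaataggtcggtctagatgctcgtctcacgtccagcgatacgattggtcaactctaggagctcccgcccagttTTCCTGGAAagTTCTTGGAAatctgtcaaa
Socs3 (chr11:117969337-117969616, minus strand): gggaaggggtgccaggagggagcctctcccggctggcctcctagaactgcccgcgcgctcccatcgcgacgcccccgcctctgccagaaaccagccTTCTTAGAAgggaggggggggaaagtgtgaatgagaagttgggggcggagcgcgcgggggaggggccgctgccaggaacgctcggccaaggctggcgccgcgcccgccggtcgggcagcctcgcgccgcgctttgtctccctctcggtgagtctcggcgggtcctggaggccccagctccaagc
Socs1 (chr16:10785507-10785786, minus strand): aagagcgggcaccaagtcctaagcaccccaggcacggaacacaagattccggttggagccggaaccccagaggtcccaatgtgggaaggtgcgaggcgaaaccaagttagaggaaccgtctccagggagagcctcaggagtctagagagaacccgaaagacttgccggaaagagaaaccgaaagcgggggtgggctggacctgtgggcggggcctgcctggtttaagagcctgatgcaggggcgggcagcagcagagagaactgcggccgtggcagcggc
Stat3 (chr11:100939511-100939790, minus strand): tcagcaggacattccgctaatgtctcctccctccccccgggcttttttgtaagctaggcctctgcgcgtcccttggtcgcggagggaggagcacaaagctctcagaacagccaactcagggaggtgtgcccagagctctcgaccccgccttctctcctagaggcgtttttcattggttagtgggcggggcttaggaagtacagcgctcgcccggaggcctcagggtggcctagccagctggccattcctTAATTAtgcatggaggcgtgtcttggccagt
The table of promoters held 6 of the 7 genes with 8 starts, since Stat5a and Stat5b each have 2. Both strands were searched for TTCNNNGAA, TAATTA, the PBX-HOX motif TGATTNAT and the MEIS motif TGACAG in the full window of 250 bases before and 50 bases from each start. Cish had 2 matches to TTCNNNGAA, the first beginning at the start base itself and the second 11 bases after it. Socs3 had 1, from 154 to 146 bases before its start. The promoters of Socs1, Stat3, Stat5a and Stat5b had none, and 8.34% of all 32619 promoters of the table had at least 1. Stat3 had 1 match to TAATTA, beginning 1 base before its start, against 5.25% of promoters. Cish had 1 match to TGACAG (18.9% of promoters), in the bases after its start and overlapping neither STAT palindrome. No start of these genes had TGATTNAT (3.24% of promoters). A match describes letters and is not evidence that a factor was bound.

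**Figure D1:**
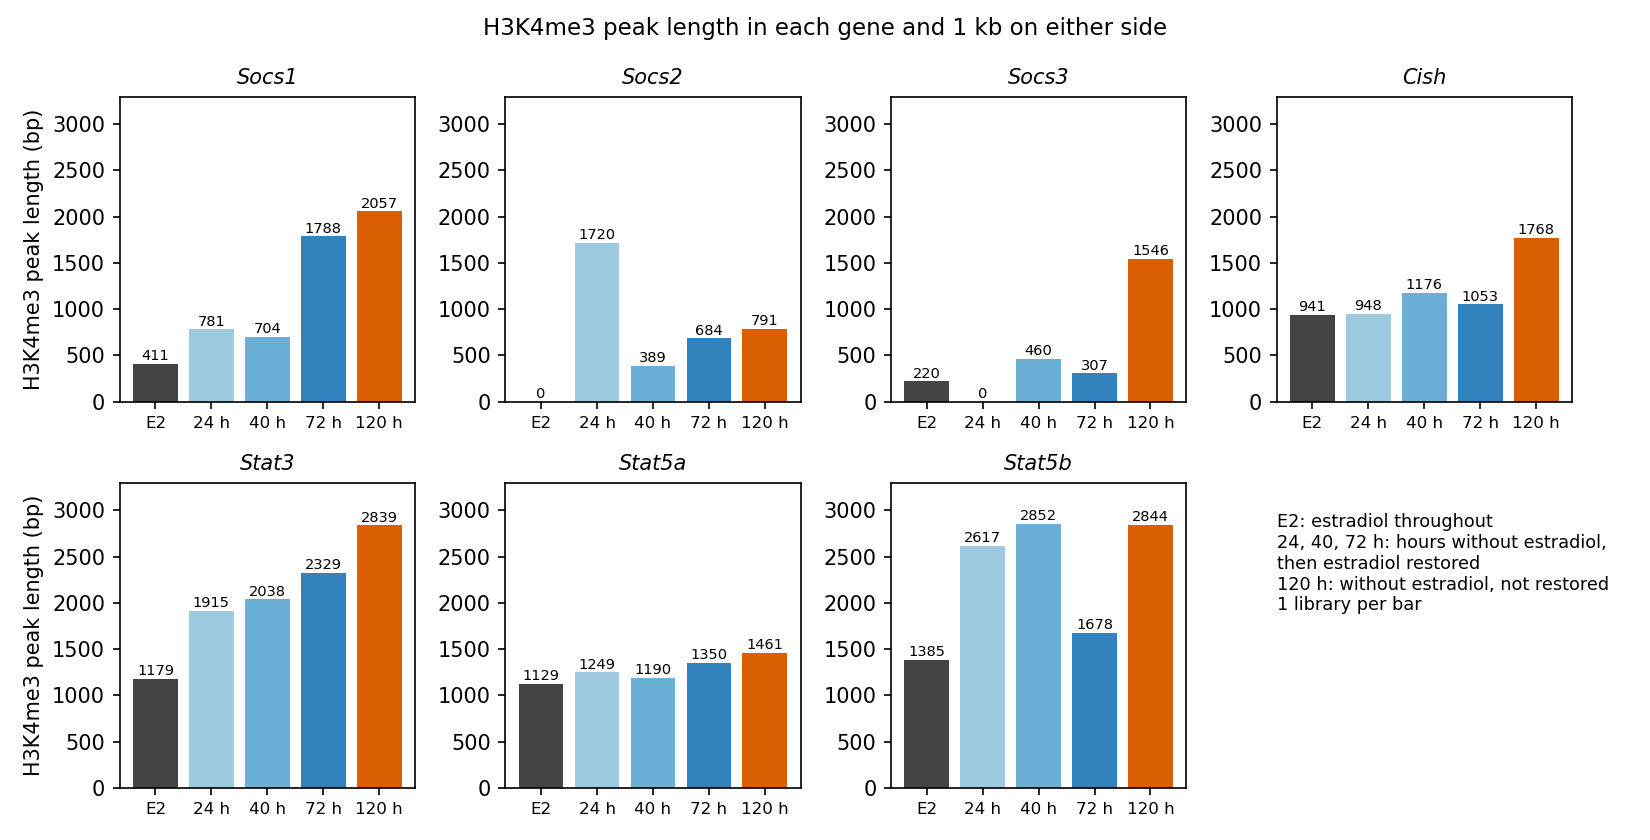
H3K4me3 peak length (bp) within each gene and 1 kb on either side, in the 5 conditions from E2 to 120 h without E2, with 1 library per bar. Socs3 stands at 1546 bp at 120 h and at 460 bp or less in the other lists, whereas Stat5a lies between 1129 and 1461 bp throughout.

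The first question was how much H3K4me3 each gene carried after 120 h without E2, relative to cells kept in E2. The 7 genes had more peak length at 120 h than in E2 without exception, as did 85.2% of all genes tested. Of the 7, 5 differed by over 2-fold (log2 ratio of the length plus 50 bp above 1): Socs1, Socs2, Socs3, Stat3 and Stat5b. Socs2 had no peak in E2, so its call rests on the 50 bp added. Among genes with a peak in E2, 2 of 3 inhibitor genes and 2 of 3 STAT genes were higher by over 2-fold, against 23.3% of all such genes. The background was high, since 32.5% of the 11594 genes with a peak in either list were higher by over 2-fold at 120 h and 1.35% were lower. The median log2 ratio was 1.23 for the 7 genes and 0.59 for all genes tested, and the 120 h list held 23835 peaks against 17497 in E2. The sources used here give no read depth, and its part in the difference was not tested. In these bulk samples a change in the make-up of the culture and a change within cells cannot be told apart. Less the median of all genes, 3 of the 7 stayed past 2-fold, Socs1, Socs2 and Socs3, where 20% of all genes were higher by over 2-fold and 3.67% lower.

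Among the inhibitors, Socs3 (chr11:117966079-117970336, minus strand), which binds receptors such as that for granulocyte colony-stimulating factor together with their kinases, had its H3K4me3 mostly at 120 h. Across the 5 lists in order from E2 to 120 h, H3K4me3 covered 220, 0, 460, 307 and 1546 bp of its window. The 120 h list was high and the other 4 were low. The log2 ratio of 120 h over E2 was 2.56, above 88.2% of genes tested, and that of 120 h over 72 h was 2.16, above 95.1% of genes. The 120 h peak spanned the start, from 686 bp before it to 859 bp after it, and was wider than 91.8% of peaks in its list. The E2 peak covered 207 to 426 bp after the start and was among the narrowest 8.22% of its list. At 40 h the single peak lay on the other side, 671 to 212 bp before the start, so the STAT palindrome, 154 to 146 bp before it, was inside a peak at 120 h and in no other list. A second, narrow region outside the window, about 2 kb beyond the 3′ end of the gene, was listed in all 5 conditions with widths of 243, 337, 316, 256 and 275 bp from E2 to 120 h.

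Socs1 (chr16:10783808-10785536, minus strand), an inhibitor that binds Janus kinases directly, had 411, 781, 704, 1788 and 2057 bp in the same order. The 72 h and 120 h lists were high and the other 3 low. The log2 ratio of 120 h over E2 was 2.19, above 85.4% of genes tested, and that of 72 h over E2 lay above 89.3%. The log2 ratio of 120 h over 72 h was 0.20. In E2 the sole peak lay before the start, from 520 to 110 bp before it, and no peak lay within the gene. At 40 h a separate peak of 281 bp appeared near the far end of the gene, 1270 to 1550 bp after the start. At 72 h peaks of 673 and 343 bp lay within the gene, and at 120 h peaks covered 931 bp before the start to 246 bp after it and 411 to 1289 bp after it.

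Socs2, an inhibitor known for limiting growth hormone signalling, had no H3K4me3 listed in its window in E2. The 24, 40, 72 and 120 h lists held 1720, 389, 684 and 791 bp, so the highest value was that of the shortest withdrawal with the longest time back in E2. No fold is given against the list at 0. All peaks but 2 lay at the end of the gene with the higher coordinates (chr10:95383903-95417321), where the long non-coding RNA gene 5730420D15Rik begins 54 bp further on. The 2 genes share that H3K4me3: at 40, 72 and 120 h the whole 389, 684 and 791 bp lay where their windows overlap. At 24 h 910 of 1720 bp did, and the rest included 2 peaks of 271 and 200 bp deep within Socs2 that no other list had. The widest Socs2 peak was wider than 71.8%, 30.7%, 40.1% and 47.6% of the peaks in the 24, 40, 72 and 120 h lists.

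Cish (chr9:107296659-107302784, plus strand), whose product competes with STAT5 for binding sites on cytokine receptors, was marked in every list. From E2 to 120 h its window held 941, 948, 1176, 1053 and 1768 bp. Again 120 h was the highest, and the other 4 lay between 941 and 1176 bp. One peak spanned the start in each list, and its upstream edge was nearly constant, 436, 479, 489, 477 and 497 bp before the start from E2 to 120 h. Its downstream edge was 504, 468, 686, 575 and 1062 bp after the start. Both STAT palindromes at the Cish start lay inside this peak in all 5 lists. The log2 ratio of 120 h over E2, 0.88, was above 62.9% of genes tested and did not reach 2-fold. A further peak of 208 bp, from 865 to 658 bp before the start, was listed at 120 h alone.

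Of the STAT genes, Stat3 (chr11:100886806-100939594, minus strand) carried 1179, 1915, 2038, 2329 and 2839 bp from E2 to 120 h, an order that followed the length of withdrawal. The log2 ratios over E2 were 0.68, 0.76, 0.95 and 1.23 for 24, 40, 72 and 120 h, and lay above 71.7% to 74.0% of genes tested in the 4 comparisons. Restricted to peaks wider than their list's median the ratio was 0.30 at 120 h, and -0.69 at 40 h, where the sign turned. The number of peaks was 2 in E2, 4 at 24, 40 and 72 h and 5 at 120 h. The long non-coding RNA gene Gm46295 overlaps the Stat3 start, and 2354 of the 2839 bp at 120 h and 503 of the 1179 bp in E2 lay in the windows of both genes, where H3K4me3 cannot be assigned to either.

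Stat5b (chr11:100780731-100859004, minus strand) carried 1385, 2617, 2852, 1678 and 2844 bp in that order. E2 and 72 h were the low lists, and the number of peaks was 2 in E2, 6 at 24 h and at 40 h, and 3 at 72 h and at 120 h. The log2 ratio was 1.01 at 120 h over E2, just past 2-fold, and under 2-fold with a window of 2.5 kb (0.81), lists of equal length (0.88), a pseudocount of 200 bp (0.94) or less the median of all genes (0.42). Stat5a (chr11:100859351-100885169, plus strand), its close paralogue 347 bp away, varied little, with 1129, 1249, 1190, 1350 and 1461 bp from E2 to 120 h. One peak was listed in each condition. Its log2 ratio of 120 h over E2 was 0.36, below the median of all genes and above 36.0% of them. No H3K4me3 base was shared between the windows of Stat5a and Stat5b.

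The order of the 7 by peak length at 120 h was Stat5b, Stat3, Socs1, Cish, Socs3, Stat5a and Socs2. In E2 it was Stat5b, Stat3, Stat5a, Cish, Socs1, Socs3 and Socs2. Both orders are of summed length over genes of unlike size, from 1729 bp (Socs1) to 78274 bp (Stat5b). The widest single peak at 120 h was 769 bp at Stat3 and 1501 bp at Stat5b, against 1178 bp at Socs1 and 1546 bp at Socs3. Neighbours in these orders cannot be separated with single libraries; Stat5b and Stat3, at 2844 and 2839 bp at 120 h, were nearly equal.

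The restored conditions were then set against E2, with the same E2 list as the common reference of all 4 ratios. Socs2 had no peak in E2, so its calls against E2 rest on the 50 bp added. At 72 h 2 of the 7 genes were higher by over 2-fold, Socs1 and Socs2, where 24.8% of 11205 genes tested were higher by over 2-fold and 1.09% lower. At 40 h 2 were higher, Socs2 and Stat5b (log2 ratio 1.02, and under 2-fold in all 6 alternatives tried), where 17.9% of 11006 genes were higher and 0.89% lower. At 24 h Socs2 was higher and Socs3 was lower, being listed at 0, where 17.1% of 11066 genes were higher and 1.08% lower. With a window of 2.5 kb Socs3 was no longer past 2-fold at 24 h. Its log2 ratio there was -0.41, since the region about 2 kb away then entered the sum. Between 120 h and 72 h, 1 gene differed by over 2-fold, Socs3, where 9.06% of 11663 genes were higher at 120 h and 2.55% lower; this comparison was added after the values were seen. A peak was listed at 6 of the genes in E2 (all but Socs2), at 6 at 24 h (all but Socs3) and at 7 at 40, 72 and 120 h, against 47.1%, 50.7%, 50.5%, 51.4% and 53.2% of all genes.

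**Figure D2:**
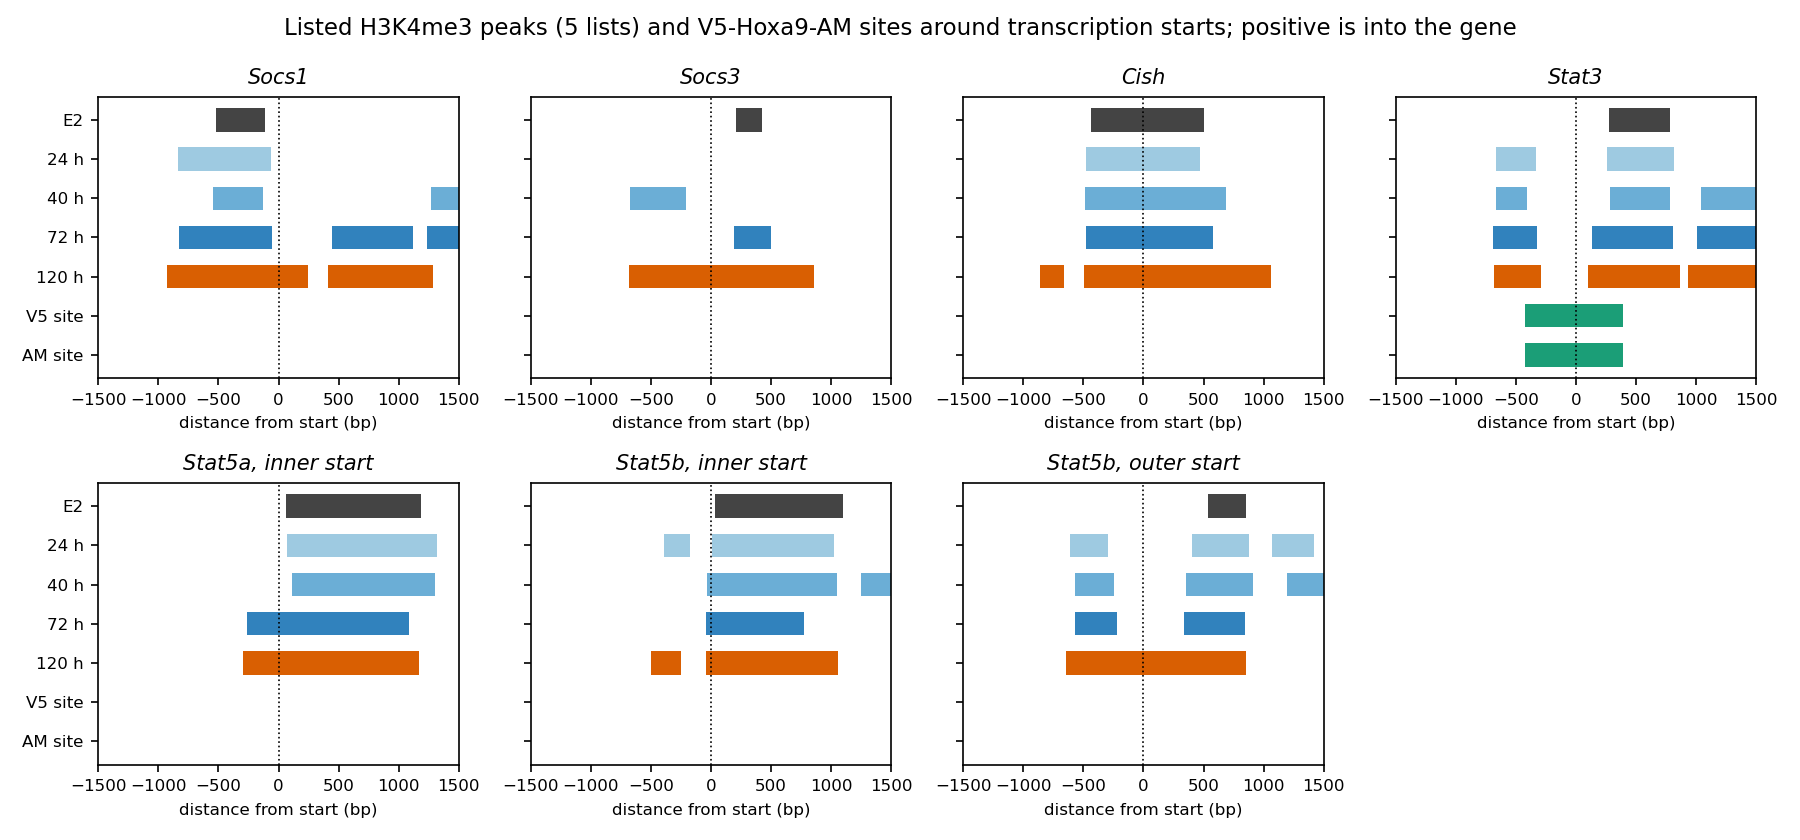
Listed H3K4me3 peaks in 5 conditions and V5-Hoxa9-AM sites of the V5 and AM lists around 7 transcription starts of 6 genes; the horizontal axis is the distance from the start (bp), positive into the gene. In E2 each start shown but that of Cish has a peak on 1 side, and at 120 h peaks stand on both sides of each. The outer start of Stat5a was left out because it was not marked on both sides at 120 h. It had H3K4me3 within 1 kb on the gene side alone in all 5 conditions.

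Around the starts, the placement of H3K4me3 followed a common form, which was noticed in the data and then counted. In E2, 7 of the 8 starts had H3K4me3 within 1 kb on 1 side alone, on the gene side at 6 of them and on the upstream side at Socs1. Of these 7, 3, 3, 5 and 6 had H3K4me3 on both sides at 24, 40, 72 and 120 h. A side counted as marked from 1 bp, so a small shift of a peak's edge could change the class. At the inner start of Stat5b the upstream side held just 37 and 38 bp at 40 and 72 h. Over all 4151 protein-coding starts marked on 1 side in E2, 43.7%, 43.1%, 60.3% and 76.7% were marked on both sides at 24, 40, 72 and 120 h, so the share at these genes was near the background. Both starts of Stat5a were scored from its single peak in each list, so the 8 starts were not independent. Among starts with any H3K4me3 within 1 kb, both sides were marked at 1 of 8 in E2, 4 of 7 at 24 h and, of 8 each, at 4, 6 and 7 for 40, 72 and 120 h. The same share over all marked starts was 55%, 69.7%, 69.5%, 78.5% and 85.2% from E2 to 120 h. Stat3 showed the form at each withdrawal time: an upstream peak of 338, 261, 364 and 391 bp at 24, 40, 72 and 120 h, and none in E2. The outer start of Stat5b had 318 bp on the gene side in E2 and none upstream, separate upstream peaks of 315, 327 and 354 bp at 24, 40 and 72 h, and at 120 h a single peak of 1501 bp from 646 bp before the start to 854 bp after it. At the inner start of Stat5b a wide peak, mostly on the gene side, was listed throughout, with 1067, 1022, 1083, 812 and 1097 bp from E2 to 120 h. The inner start of Stat5a was overlapped by its peak at 72 and 120 h, from 266 and 293 bp before the start, whereas in E2 and at 24 and 40 h the peak began 60, 74 and 112 bp after it. When peaks no wider than their list's median were left out, 4 starts were marked on 1 side in E2 and 2 of them on both at 120 h.

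The second readout was the sites of tagged HOXA9 in other cells, those with V5-Hoxa9-AM. In the V5 list, 4 of the 7 genes had a site within 10 kb (33.4% of all genes did): Socs1, Cish, Stat3 and Stat5b. In the AM list 5 had one (19% of all genes): these 4 and Socs2. The lists were not independent, since 91.5% of AM sites had exactly the coordinates of a V5 site. Longer genes have more sites within reach, and the share of genes with a V5 site was 14.6% in the shortest of 5 equal classes of gene length, which holds Socs1 and Socs3, 25.5% in the next, which holds Cish, 40.9% in that of Socs2, Stat3 and Stat5a and 53.9% in that of Stat5b. In V5-ER-Hoxa9-AM cells, 0 of the 7 genes had a site within 10 kb in the V5 list in E2 (3.9% of all genes), in the V5 list at 72 h (1.19%) or in the AM list in E2 (0.73%), and none had one within 25 kb. Those lists were short, with 1417, 387 and 258 sites against 17006 and 6773 in V5-Hoxa9-AM cells, so few genes of any kind had one.

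At Stat3 both sites met H3K4me3. One site of 823 bp (chr11:100939145-100939967), listed with the same coordinates by V5 and AM, ran from 427 bp before the start to 395 bp after it, and the promoter printed above with its TAATTA lies within it. It was wider than 97.8% of V5 sites, and 4.55% of the 17006 V5 sites overlapped a protein-coding start. H3K4me3 flanked the site on the gene side in E2 and on both sides in the other 4 lists, covering 118, 235, 134, 365 and 432 of its 823 bp from E2 to 120 h. The other Stat3 site, of 302 bp (chr11:100931581-100931882), lay 7658 to 7959 bp into the gene and away from any listed start of Stat3. It was wholly inside an H3K4me3 peak in all 5 lists, as were 0.741% of V5 sites. That peak was 676, 667, 710, 588 and 485 bp wide from E2 to 120 h, with 120 h the narrowest. The shares of 4.55% and 0.741% were not planned and are for features met at these Stat3 sites, so they are descriptions and no measure of rarity.

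**Figure D3:**
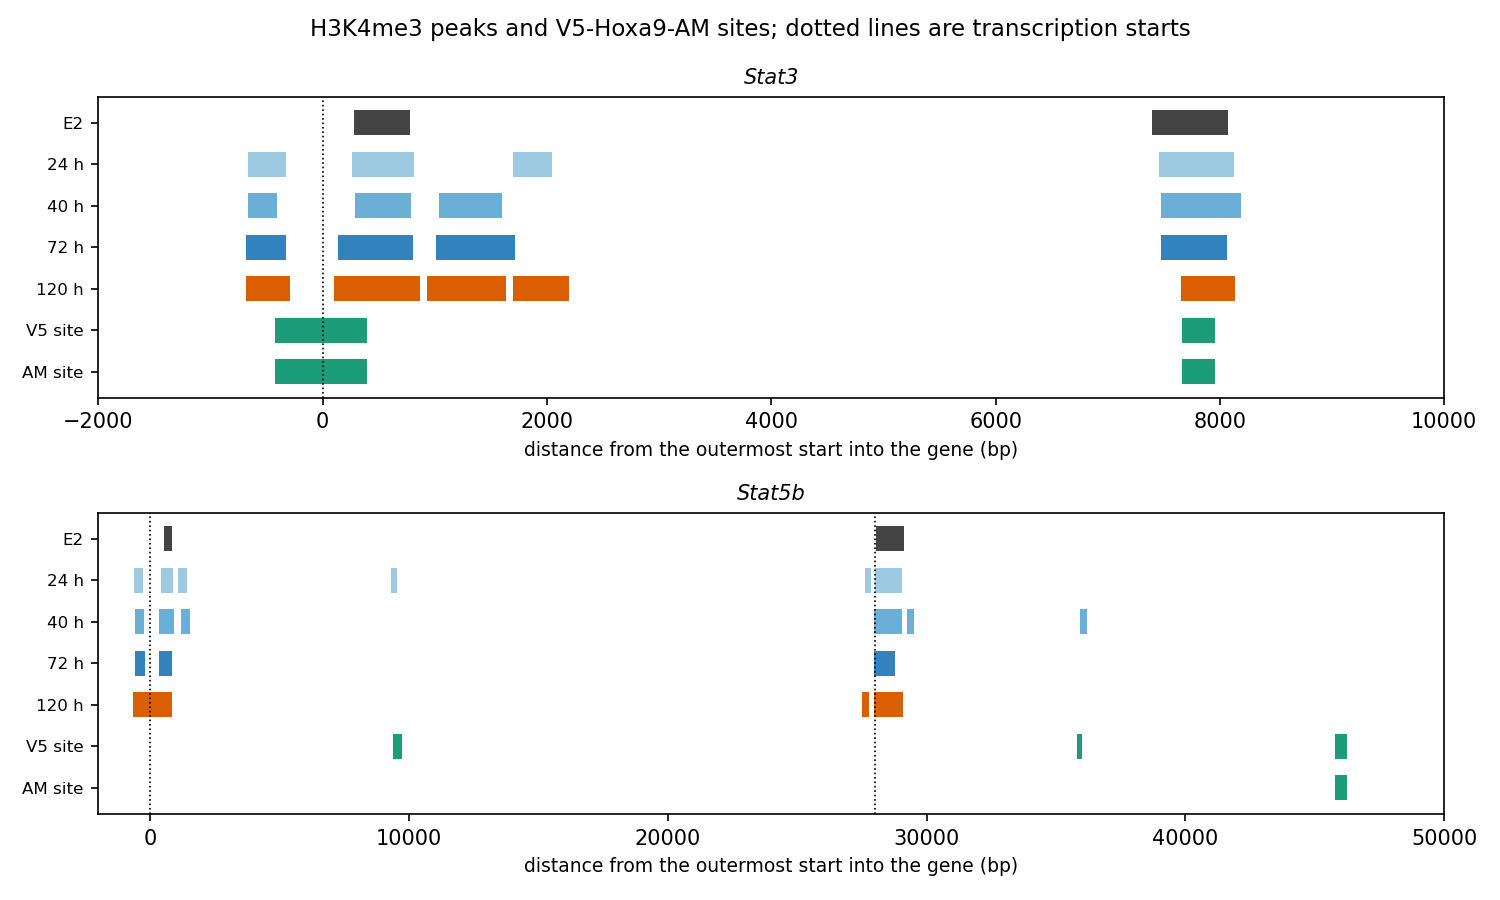
H3K4me3 peaks in 5 conditions and V5-Hoxa9-AM sites across Stat3 and Stat5b; the horizontal axis is the distance (bp) from the outermost start into the gene, and dotted lines are starts. At Stat3 a site lies over the start and another inside a peak present in all 5 lists; at Stat5b the 3 V5 sites lie away from both starts.

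At Stat5b, Socs1 and Cish no site overlapped a listed start. Stat5b had 3 V5 sites within the gene, of 453, 191 and 318 bp, the first of them also in the AM list. The site of 318 bp met H3K4me3 at 24 h over 133 bp and the site of 191 bp at 40 h over 55 bp, each in no other list, and the site of 453 bp met none. At Socs1 a site of 518 bp in both lists lay 275 bp beyond the 3′ end of the gene (chr16:10783016-10783533) and held no H3K4me3. The 2 sites near Cish, of 346 and 207 bp, lay 9639 and 9042 bp before its start and inside the neighbouring gene Mapkapk3, close to the limit of 10 kb. The site of 346 bp met H3K4me3 at 120 h alone, over 136 bp, and the site of 207 bp over 207, 59 and 65 bp at 24, 72 and 120 h. Socs2 had 1 site of 222 bp in the AM list alone, inside the gene near the end that lies beside 5730420D15Rik, and since Socs2 has no start in the table its distance from one is not given. The site met H3K4me3 over 184 and 216 bp at 72 and 120 h and did not meet it in the other lists. This AM site was among the narrowest 2.47% of its list. Socs3 and Stat5a had no site within 10 kb; the nearest in the V5 list lay 11642 bp from Socs3 and 18171 bp from Stat5a, the second being a site within Stat5b.

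**Figure D4:**
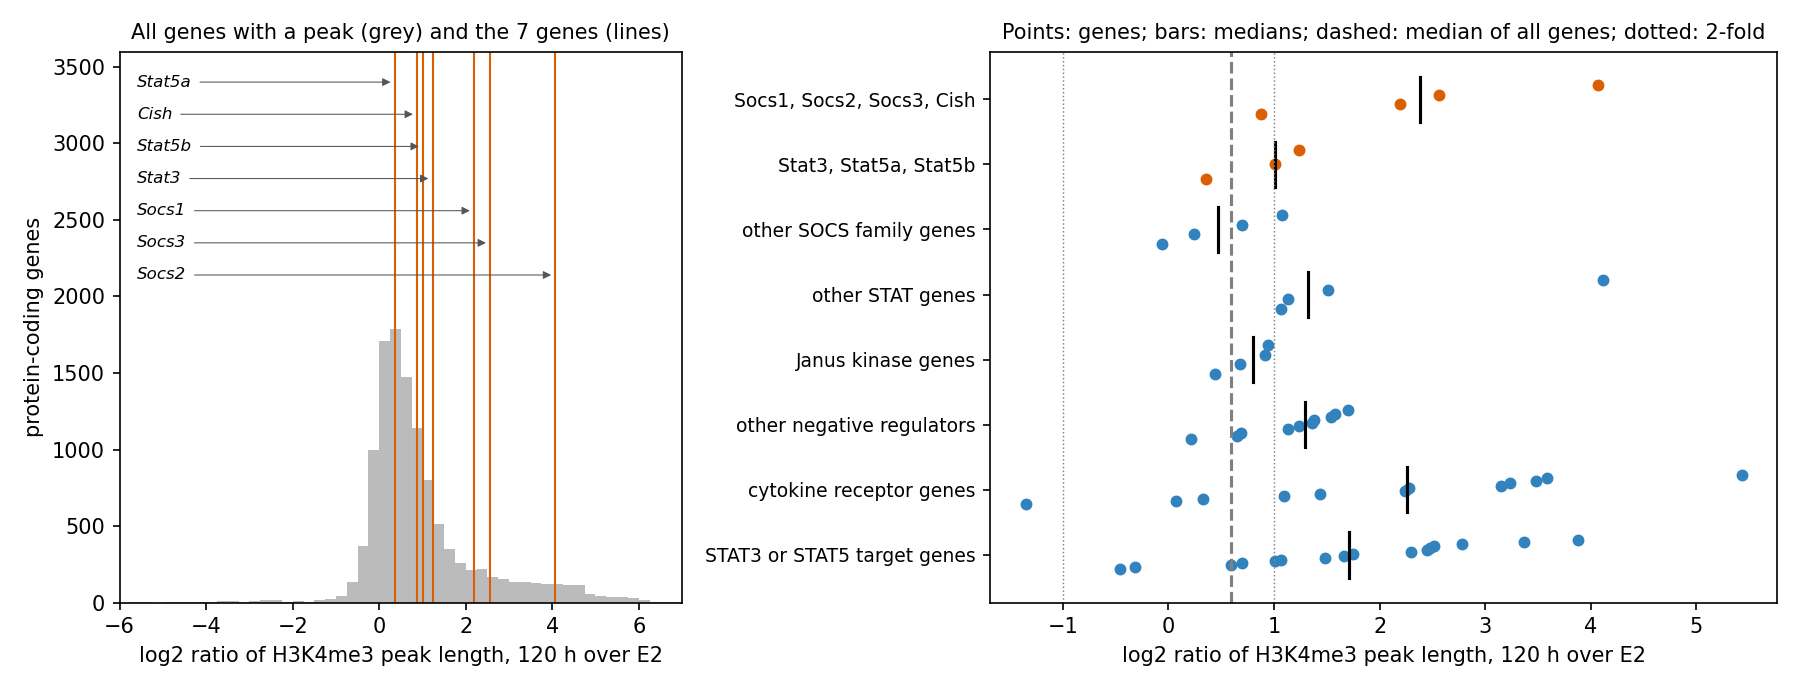
Log2 ratio of H3K4me3 peak length plus 50 bp, 120 h over E2. Left, the 11594 genes listed in E2 or at 120 h as a histogram with the 7 genes as lines; right, each gene of the pathway lists as a point with the list's median as a bar. The median was 0.59 for all genes and 1.30 for the 50 pathway genes, and the place of genes without a peak in E2, such as Socs2, depends on the 50 bp added.

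The rest of the pathway was described by 6 lists with 55 genes, grouped by role. At 120 h against E2, 33 of the 50 with a peak in either list were higher by over 2-fold and 1 was lower. Of the 33, 7 had no peak in E2. Among genes with a peak in E2, 26 of 43 pathway genes were higher by over 2-fold, with a median log2 ratio of 1.09, against 23.3% and 0.49 over all such genes. Less the median of all genes, 18 of the 50 were higher by over 2-fold and 2 lower, against 20% and 3.67% of all genes.

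The counts by role are descriptions of short lists, to be read against the 32.5% of all genes that were higher by over 2-fold and the 1.35% that were lower. Among the kinases and the other SOCS genes few passed 2-fold. Of 4 Janus kinase genes (Jak1, Jak2, Jak3 and Tyk2), 0 passed 2-fold, with a median log2 ratio of 0.80. Of the 4 other SOCS genes, 1 did: Socs5 had 1553 bp at 120 h and 712 bp in E2. Each of the 4 other STAT genes passed 2-fold. Stat6, which mediates responses to interleukin 4, had 2449 and 1092 bp at 120 h and in E2. Stat4, which acts downstream of interleukin 12, had 816 bp at 120 h and 0 bp in E2, but already 1066 bp at 24 h and at 40 h.

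Of 10 other negative regulators of the pathway, 7 were higher by over 2-fold and 0 lower (32.5% and 1.35% of all genes). The 3 with the highest ratios were Ptpn6, which encodes the phosphatase SHP-1 (3873 bp at 120 h and 1160 bp in E2), Sh2b3, which encodes the adaptor LNK (4928 and 1613 bp), and Pias3, which encodes an inhibitor of STAT3 (1657 and 538 bp). Of 17 cytokine receptor genes, 12 had a peak in either list, 9 were higher and 1 was lower. Csf2rb2, which encodes the mouse receptor chain specific to interleukin 3, had 2105 bp at 120 h and 0 bp in E2; it is a close paralogue of Csf2rb, so the placing of reads there is uncertain. Il3ra had 552 bp at 120 h and Il10ra 508 bp, each with 0 bp in E2. The lower gene was Il2rg, the common gamma chain, which had 198 bp at 120 h and 582 bp in E2. Of 16 genes known as STAT3 or STAT5 targets, 12 were higher and 0 lower. Il1rn, which encodes the interleukin 1 receptor antagonist, had 684 bp at 120 h and 0 bp in E2. Bcl3, an atypical IkB protein gene, had 2855 bp at 120 h and 231 bp in E2, and Cebpb, a transcription factor gene of emergency granulopoiesis, had 2788 and 363 bp at 120 h and in E2. Within 10 kb of a V5-Hoxa9-AM V5 site lay 29 of the 55 pathway genes (52.7%), against 33.4% of all genes. The 2 shares were not matched for gene length. Over all genes the share was 14.6% in the shortest class of gene length and 53.9% in the longest.

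The patterns most like those of the 7 genes were found by the Euclidean distance of log2(bp + 50) over the 5 lists, taking the 2 nearest other genes for each. For Socs3 these were Ier5l (distance 0.31; 211, 0, 386, 269 and 1694 bp from E2 to 120 h) and Klf2 (distance 0.83; 247, 0, 464, 397 and 2640 bp). For Socs1 they were Mboat7 (0.43) and Rusc1 (0.44), for Cish Coa8 (0.21) and Paqr7 (0.22), and for Stat3 Tbc1d15 (0.18) and Fryl (0.20). Stat5a had the nearest neighbours, Rab35 and Ctbp1, both at 0.06. Stat5b was nearest to Tut7 (0.26) and Sufu (0.32). For Socs2 the distance to Lrrc61 was 1.02.

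Marker genes show what else differed between the lists in which these genes were measured. Of 12 neutrophil maturation genes, 0, 1, 2, 3 and 11 had H3K4me3 from E2 to 120 h, with summed lengths of 0, 200, 442, 2961 and 31791 bp; Camp was at 0 in all 5. The 8 myeloid progenitor genes were marked in every list, with a summed 22486 bp at 120 h and between 31103 and 35313 bp in the other lists; of the 8, 2 were lower at 120 h by over 2-fold and 1 was higher. The lower genes were Mpo, with 1270 and 5894 bp at 120 h and in E2, and Cd34, with 1053 and 4628 bp. The higher gene was Spi1, which had 5463 bp at 120 h and 2339 bp in E2. Of the lymphoid genes 2 of 8 were marked in E2 and 2 at 120 h, of the erythroid and megakaryocyte genes 2 and 3 of 8, with Gata1 and Hba-a1 at 0 in all lists, and of 6 mast cell, basophil and eosinophil genes 0 in any list. The lymphoid genes summed to 3774, 5895, 6019, 2001 and 1848 bp from E2 to 120 h. Of the marked ones, Ebf1 had 987 bp at 120 h and 3358 bp in E2, whereas Cd79b had 861 bp at 120 h and 416 bp in E2. The erythroid and megakaryocyte genes summed to 927, 1370, 1540, 2725 and 2058 bp from E2 to 120 h. The part of these markers in the results above was not tested.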

How the data were processed

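The deposited files were lists of peaks or sites with chromosome, start and end and no score, and the unit of these deposited values is other (coordinates). Per the submitters' processing notes, Bowtie2 2.0, BWA and MACS2 2.0 served the series, whose builds include mm9 and mm10. No source used here assigns them to files or gives depth, threshold or inputs. The 5 H3K4me3, 3 V5 and 2 AM lists were placed on the RefSeq gene table of GRCm38.p6. The 11 H3K27ac and H3K27me3 lists run past the last gene of chromosome 1 in that table and were not used here. A further 9 of the 30 samples were not analysed here either, which left 10 lists. Chromatin input was 30 ug per V5 or AM sample and 500 ug per histone sample, per the labels' protocols.

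Chromosomes 1 to 19 and X were kept, with 1-based coordinates. Covered length was the union of peaks in the gene plus 1 kb on either side, and log2 ratios used a pseudocount of 50 bp; past 2-fold was called. A site counted as near a gene within 10 kb of its ends. Starts and strands came from the RefSeq promoter table. The covered-length code was tested on simulated data. The 7 genes, the lists and the rules were chosen with earlier results of these data known. Named genes were the 7, up to 3 per direction and list with the highest ratios past 2-fold, the 2 nearest patterns per gene and genes within their windows; Camp, Gata1, Hba-a1, Mapkapk3 Cd79b and the Janus kinases were named after their values were seen. Some genes that the rule names are not reported here. Peak placement around starts and the ratio of 120 h over 72 h were also chosen after seeing the data. The shares of V5 sites over a start or wholly inside H3K4me3 in all lists were not planned either. Since the lists hold no counts, no test was run, and alternatives are given in the closing section. Python 3.11.15, numpy 2.4.6, pandas 2.3.3 and matplotlib 3.10.9 were used.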

Additional observations from a re-analysis of the deposited data

How the results depend on the processing

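No paired analysis was possible because each condition had 1 library per target. Under 6 alternatives 197 log2 ratios of single genes were recomputed. Of these, 182 kept their side of 2-fold, 13 no longer passed it, 2 passed it anew and 0 past 2-fold changed sign. The 182 include ratios under 2-fold from the start, whereas all 13 came from calls, so 182 of 197 overstates how well calls held. With the main settings the calls were 5 genes at 120 h over E2, 2 each at 72, 40 and 24 h over E2 and 1 at 120 h over 72 h. Ratios of genes with no start, or no peak in either list, under an alternative were left out, so calls lost in that way are not counted. Within 1 kb of starts these were Socs2 at 24, 40, 72 and 120 h over E2. With wide peaks they were Socs2 at 40, 72 and 120 h and Socs3 at 24 h over E2. At 120 h over E2, 3 genes passed 2-fold in place of 5 with peaks above the median width (Socs1, Socs3 and Stat5b, of 6 with a peak; 38.5% of all genes were higher) and 3 less the median of all genes (20%). At 72 h over E2, 1 passed in place of 2 within 1 kb of the starts, where Socs2 has no start (21.9% of all genes), and 1 of 5 with wide peaks (29.9%). At 40 h over E2, 1 passed in place of 2 with the window of 2.5 kb (17.9% of all genes), equal list lengths of 17497 peaks (13.6%), the pseudocount of 200 bp (13.8%) or less the median (11.1%), and 0 within 1 kb of starts (13.9%) or with wide peaks (23.1%). At 24 h over E2, 1 passed in place of 2 with 2.5 kb (Socs2, higher, as 17.3% of all genes) and within 1 kb of starts (Socs3, lower, as 0.986%). With wide peaks 2 of 6 passed at 24 h, Socs1 and Socs2, both higher (23.7% of all genes), and Socs3 had no peak in either list. At 120 h over 72 h, 2 of 6 passed in place of 1 with wide peaks (15% of all genes). With wide peaks 4 of the 7 genes had a peak at 40 h, and 2 of 4 starts were marked on both sides at 120 h (64.3% of all starts marked on 1 side in E2). Of the pathway genes, 20 passed 2-fold in either direction within 1 kb of starts (19 higher and 1 lower of 34, against 29.3% and 0.825% of all genes) and 20 less the median (18 higher and 2 lower of 50, against 20% and 3.67%). Sites overlapping the gene itself left 2 genes in the V5 list and 3 in the AM list, and AM sites above the median width 3. The share over all genes was not computed for these site counts or for the genes with a wide peak at 40 h. These counts therefore have no background to be read against. Where no reason is given, the cause was not tested. The lists give no depth, no peak heights and no replicates, so a region left out of a list may lie just under the authors' threshold, and covered length is not the amount of the mark.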
